A study of Mus musculus with 8 samples.

Results

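Macrophage markers and the complement component C1q were examined in the tibialis anterior of the lower leg, a muscle rich in fast fibres, of C57BL/6J mice aged 24 months. The 10 genes, of 48328 in the deposited table, were taken by symbol and found through their Ensembl identifiers: Cd68, Lyz2, Csf1r, Adgre1, Ctss, Mrc1, Cd163, C1qa, C1qb and C1qc. Total RNA from 4 K320E-skm muscles and 4 wild-type muscles was sequenced, with 2 libraries labelled male and 2 labelled female in each genotype. K320E is a dominant variant of Twinkle, which unwinds mitochondrial DNA for its replication, and the suffix skm stands for its expression in skeletal muscle. The driver of that expression, and whether the wild-type mice carry an unexpressed allele, were not found in the labels used here. The series asks how changes of mitochondrial DNA bear on muscle loss with age.

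Macrophages are phagocytes that live in the connective tissue between muscle fibres, clear dying cells and take part in the repair of injured fibres. C1q is the recognition unit that starts the classical complement pathway. It is built from A, B and C chains, each encoded by its own gene, and in most tissues macrophages are its main source. Since whole muscle was sequenced, fewer macrophages and less of a transcript per macrophage cannot be told apart here.

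The C1q genes lie side by side on the minus strand of chromosome 4 within 18675 bases of the GRCm38 build. C1qb spans chr4:136880129-136886187, C1qc spans chr4:136889804-136893065 and C1qa spans chr4:136895917-136898803, with 3616 bases between the first pair and 2851 between the second. The 250 bases before the RefSeq start are printed for 3 genes: C1qb, Cd68 and Cd163. C1qb, like Ctss, held both motifs described next, and the levels of Cd68 and Cd163 spread most and least across the libraries. They come from RefSeq on GRCm38.p6, at chr4:136886201-136886450 (minus strand), chr11:69666171-69666420 (minus strand) and chr6:124304401-124304650 (plus strand), and are written 5′ to 3′ along the gene. Capitals mark GAGGAA or its reverse complement TTCCTC, the core bound by ETS factors such as PU.1, a regulator of the macrophage lineage, and TCAGCA or its reverse complement TGCTGA, the core of the site of Maf factors.
C1qb: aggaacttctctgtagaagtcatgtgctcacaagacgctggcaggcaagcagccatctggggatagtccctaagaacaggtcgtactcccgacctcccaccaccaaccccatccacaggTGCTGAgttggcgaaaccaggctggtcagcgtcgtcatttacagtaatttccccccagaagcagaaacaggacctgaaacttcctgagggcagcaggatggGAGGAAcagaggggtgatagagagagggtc
Cd68: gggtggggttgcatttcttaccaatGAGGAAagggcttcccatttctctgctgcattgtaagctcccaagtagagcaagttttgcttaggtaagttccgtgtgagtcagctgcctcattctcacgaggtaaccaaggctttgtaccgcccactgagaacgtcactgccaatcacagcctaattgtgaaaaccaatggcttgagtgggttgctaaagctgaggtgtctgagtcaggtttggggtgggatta
Cd163: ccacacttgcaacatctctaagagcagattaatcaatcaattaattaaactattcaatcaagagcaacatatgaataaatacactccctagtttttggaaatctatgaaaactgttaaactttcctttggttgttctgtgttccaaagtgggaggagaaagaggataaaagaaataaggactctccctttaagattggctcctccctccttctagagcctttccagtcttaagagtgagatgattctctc
RefSeq windows from 250 bases before to 50 bases after the start were at hand for 7 of the 10 genes: Lyz2, Cd68, Mrc1, Ctss, C1qb, C1qc and Cd163. GAGGAA, on either strand, stood in 5 of the 7, against 28.3% of 32851 mouse promoters of the same length. TCAGCA stood in 3 of the 7, those of Lyz2, Ctss and C1qb, against 19.5% of all promoters. C1qb held both, with the first base of GAGGAA at -30 and that of TCAGCA at -131 from the start. Ctss also held both, with GAGGAA at -164 and 0 and TCAGCA at -141. C1qc held GAGGAA at -193 and no TCAGCA, Mrc1 held GAGGAA at -180, -167 and -35, and Cd163 held neither. These positions count from the RefSeq start, which for C1qc, Lyz2 and Mrc1 lies inside the GENCODE span of the gene. A match describes the letters of these windows and not a bound site.

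The values are FPKM, fragments scaled to the length of the transcript and to all mapped fragments of the library. Levels can so be set beside each other between genes. Between libraries they are shares of a total, which also depend on the other transcripts of the library. The libraries had 10167 to 11581 genes at 1 FPKM or more, and their depths relative to the shallowest were 1.00 to 1.30, while absolute depth is unknown. Twnk, the gene of Twinkle, had 3.82 to 5.06 FPKM in K320E-skm muscles and 2.16 to 2.70 FPKM in wild-type muscles, with no overlap. Summed transcripts of muscle fibre markers ranged from 31190 to 36490 FPKM in K320E-skm muscles and from 39300 to 40380 FPKM in wild-type muscles, with fibre transcripts abundant in all 8 libraries. K320E-skm 4 is labelled male, yet Xist, expressed from the inactive X chromosome, was at 10.2 FPKM there and the Y-linked Ddx3y at 0.0117 FPKM, as in the libraries labelled female. The genotype comparison therefore carries no term for sex. By these sex-linked transcripts the sexes are not balanced between the genotypes, and the part of apparent sex in the comparison was not tested. The labels give the samples as separate without naming animals, litters or days, and a p-value here refers to the spread among these 8 samples.

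All 10 genes were present in old muscle of both genotypes, and no difference between K320E-skm and wild-type passed the test. In limma's moderated test on log2(FPKM + 1), 0 of the 10 genes passed a Benjamini-Hochberg adjusted p of 0.05, against 0.019% of all 10521 tested genes (0.0095% higher and 0.0095% lower). At an unadjusted p under 0.05, 0 of the 10 were higher, against 1.07% of all genes, and 0 were lower, against 13.6%. The values of K320E-skm and wild-type libraries overlapped for all 10, whereas 9.92% of tested genes had no overlap in either direction, 0.333% with K320E-skm higher and 9.59% with K320E-skm lower. The fold change was above 0 for all 10 genes, against 20.5% of all genes. Their median log2 fold change was 0.32, beside -0.14 over all tested genes, and all 10 lay above that median gene. Since the macrophage transcripts moved together from library to library, these are not 10 separate observations.

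Lyz2, which encodes the lysozyme of macrophages and other myeloid cells, was the highest of the 10. It had 66.7, 46.4, 44.0 and 23.2 FPKM in K320E-skm 1 to 4, against 51.4, 45.0, 22.2 and 20.7 FPKM in wild-type 1 to 4. In each genotype there were high and low muscles, and the lowest K320E-skm value lay just above the low wild-type ones. The means were 45.1 ± 17.8 FPKM in K320E-skm muscles, against 34.8 ± 15.7 FPKM in wild-type (SD, n = 4 each), a log2 fold change of 0.38 with a standard error of 0.36 and a limma adjusted p of 0.615. Its near-identical paralog Lyz1 was at 1.33 to 3.42 FPKM in K320E-skm muscles, against 0.927 to 3.10 FPKM in wild-type muscles, and reads could be split between them.

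Cd68, a lysosomal membrane glycoprotein used to stain macrophages, showed the largest fold change of the 10. It had 6.88, 3.76, 5.01 and 1.91 FPKM in K320E-skm 1 to 4, against 3.39, 3.52, 1.26 and 0.771 FPKM in wild-type 1 to 4. Of the K320E-skm muscles, 3 were above every wild-type muscle and K320E-skm 4 was below wild-type 1 and 2. The log2 fold change was 0.76 with a standard error of 0.36 and a 95% interval of -0.05 to 1.57 (limma adjusted p = 0.36). In an exact two-sided permutation test over 70 assignments, whose smallest possible p is 0.0286, Cd68 gave p = 0.114.

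Ctss encodes cathepsin S, the lysosomal protease that trims the invariant chain during antigen presentation. It had 12.9, 7.62, 14.2 and 3.72 FPKM in K320E-skm 1 to 4, against 10.7, 9.70, 2.75 and 2.93 FPKM in wild-type 1 to 4. K320E-skm 1 and 3 were the highest muscles and wild-type 3 and 4 the lowest, with the rest mixed. The log2 fold change was 0.55 with an interval of -0.48 to 1.59 (limma adjusted p = 0.574). A processed pseudogene, Hmgb1-ps5, lies within the bounds of Ctss.

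Csf1r, the receptor for the growth factors CSF1 and IL-34 on which tissue macrophages depend, was nearly level between the genotypes. It had 6.47, 5.31, 3.49 and 2.49 FPKM in K320E-skm 1 to 4, against 7.26, 4.53, 2.53 and 2.73 FPKM in wild-type 1 to 4. The highest and the second highest value came from different genotypes. The log2 fold change was 0.07 with an interval of -0.60 to 0.75 (limma adjusted p = 0.917). The values are thus compatible with changes of either direction inside that interval. Hmgxb3, on the opposite strand, overlaps Csf1r, and how strand was treated in the counting is not given in the sources used here.

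Adgre1 encodes an adhesion receptor whose antigen is the classical surface marker of mouse macrophages. It was the lowest of the 10, with 2.23, 2.00, 1.88 and 0.675 FPKM in K320E-skm 1 to 4, against 2.16, 1.49, 0.957 and 0.673 FPKM in wild-type 1 to 4. It reached 1 FPKM in 5 of the 8 libraries, whereas Cd68 did so in 7 and the other 8 genes in all. The log2 fold change was 0.21 with an interval of -0.33 to 0.76 (limma adjusted p = 0.682).

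Mrc1 and Cd163, scavenger receptors typical of resident tissue macrophages, showed the smallest differences. Mrc1, the mannose receptor, had 5.15, 6.58, 3.28 and 2.40 FPKM in K320E-skm 1 to 4, against 6.75, 5.18, 2.27 and 2.79 FPKM in wild-type 1 to 4. Its log2 fold change was 0.05 with an interval of -0.65 to 0.75 (limma adjusted p = 0.95). Cd163, which takes up haemoglobin bound to haptoglobin, had 3.53, 4.43, 2.79 and 2.64 FPKM in K320E-skm 1 to 4, against 3.73, 4.64, 2.23 and 2.63 FPKM in wild-type 1 to 4. Its log2 fold change was 0.03 with an interval of -0.41 to 0.46 (limma adjusted p = 0.952). Cd163 was also the steadiest of the 10 genes, with the highest library 2.08 times the lowest, whereas that ratio was 8.92 for Cd68. The sign of the fold changes of Csf1r, Mrc1 and Cd163 turned when single libraries were left out.

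The C1q chains had the widest intervals next to Ctss. C1qa had 18.1, 18.0, 14.6 and 6.48 FPKM in K320E-skm 1 to 4, against 22.9, 13.3, 5.28 and 5.65 FPKM in wild-type 1 to 4. C1qb had 13.6, 13.7, 11.6 and 4.99 FPKM in K320E-skm 1 to 4, against 16.7, 11.2, 3.92 and 5.55 FPKM in wild-type 1 to 4. C1qc had 15.8, 15.1, 11.4 and 5.02 FPKM in K320E-skm 1 to 4, against 18.9, 11.0, 4.75 and 4.87 FPKM in wild-type 1 to 4. For each chain wild-type 1 was the highest muscle as deposited, and K320E-skm 1 to 3 and wild-type 2 followed. K320E-skm 4, wild-type 3 and wild-type 4 were the lowest. The log2 fold changes were 0.39 for C1qa, 0.30 for C1qb and 0.33 for C1qc, with standard errors of 0.45, 0.41 and 0.44 and limma adjusted p of 0.682, 0.727 and 0.721. For C1qa the interval ran from -0.60 to 1.38. Without wild-type 1 the log2 fold change of C1qa was 0.77 (limma adjusted p = 0.522), and without wild-type 3 it was 0.12 (limma adjusted p = 0.885). Over all libraries left out in turn, the log2 fold change ranged from 0.0067 to 0.62 for C1qb, 0.092 to 0.69 for C1qc, 0.17 to 0.66 for Lyz2, 0.071 to 0.43 for Adgre1, 0.29 to 0.90 for Ctss and 0.51 to 1.03 for Cd68. Among these 6 and C1qa, the lowest value came without wild-type 3 for the C1q genes and Ctss, without wild-type 4 for Cd68 and Adgre1, and without K320E-skm 1 for Lyz2.

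**Figure D1:**
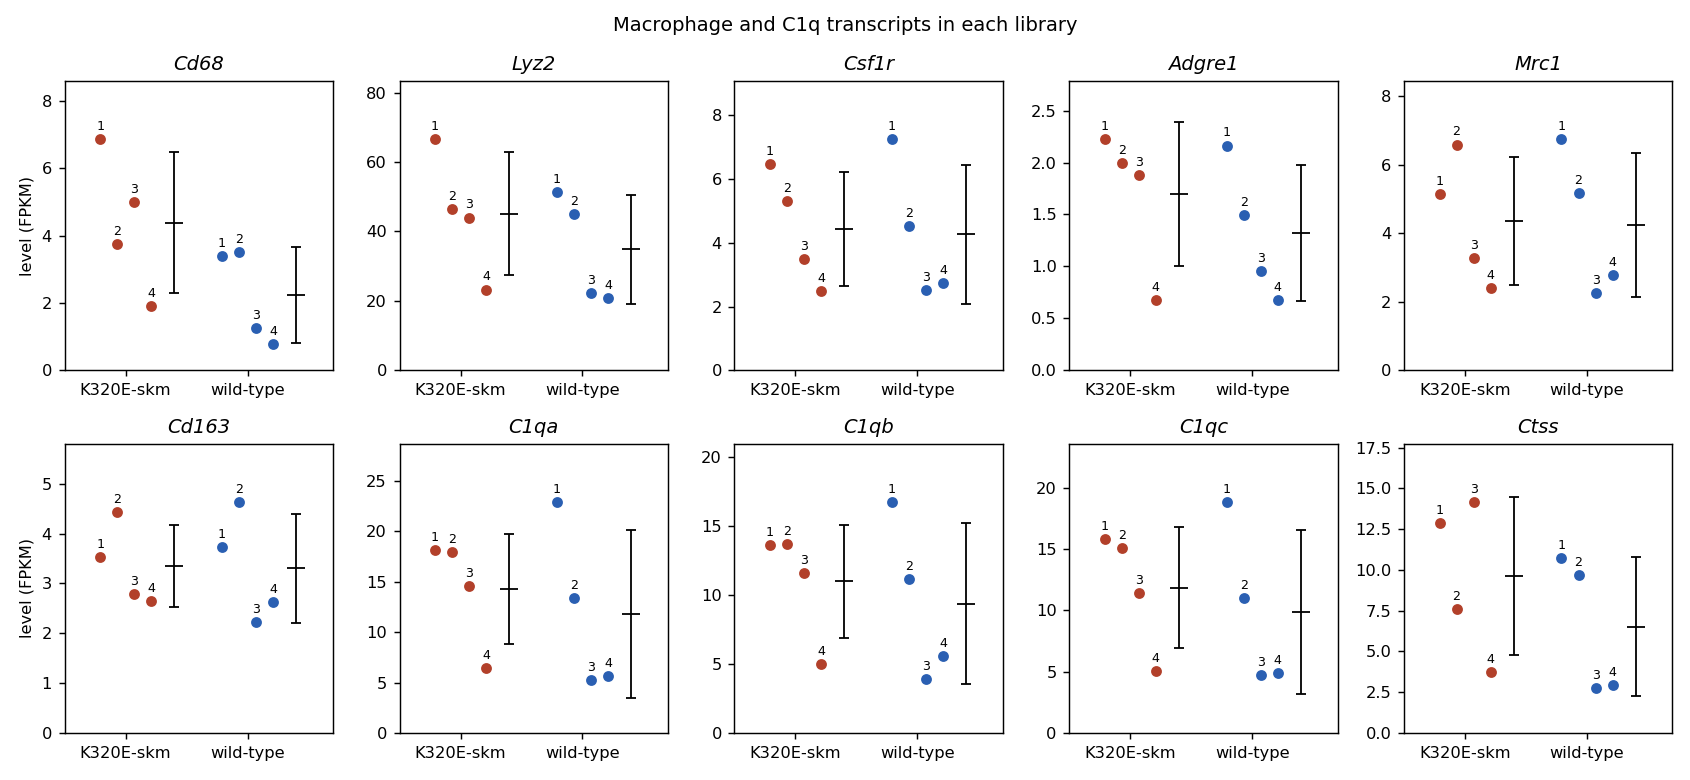
Level in FPKM of the 10 genes in each library, with K320E-skm in red on the left and wild-type in blue on the right of each panel, digits giving the replicate number, and bars the mean ± SD (n = 4). The groups overlap in every panel, and C1qa runs from 5.28 FPKM in wild-type 3 to 22.9 FPKM in wild-type 1.

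**Figure D2:**
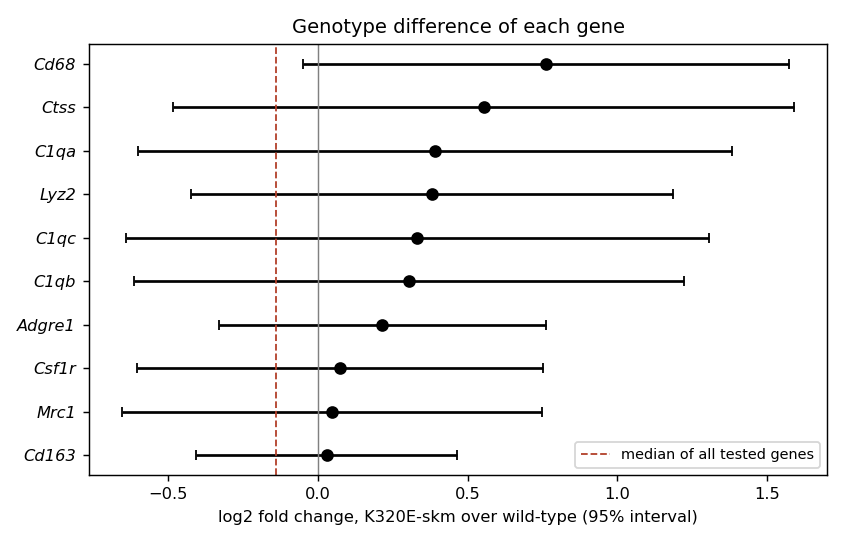
Log2 fold change of K320E-skm over wild-type on the log2(FPKM + 1) scale, with 95% intervals from limma, for the 10 genes sorted by size. Every interval includes 0, from Cd68 at 0.76 to Cd163 at 0.03, and the dashed line marks the median of all tested genes at -0.14.

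Along the scale of levels per length, averaged over all 8 libraries, Lyz2 stood at 40.0 FPKM and C1qa at 13.1 FPKM. C1qc at 10.9 FPKM and C1qb at 10.2 FPKM came next and changed places between libraries, with C1qc the higher in 5 of 8. Ctss averaged 8.06 FPKM and was above Csf1r, at 4.35 FPKM, in 8 of 8 libraries. Csf1r and Mrc1, at 4.30 FPKM, could not be ordered, with Csf1r the higher in 5 of 8 libraries. Cd163 averaged 3.33 FPKM and Cd68 3.31 FPKM, with Cd163 the higher in 6 of 8, and Adgre1 was last at 1.51 FPKM, below Cd68 in 8 of 8. The place of Cd68 differed by genotype: its mean was 4.39 FPKM in K320E-skm muscles, above Cd163 at 3.35 FPKM, and 2.24 FPKM in wild-type muscles, below Cd163 at 3.31 FPKM.

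The C1q chains kept close to fixed proportions, which do not depend on how a library is scaled. C1qa over C1qc was 1.15 to 1.29 in K320E-skm and 1.11 to 1.22 in wild-type muscles, a coefficient of variation of 5.15% over the 8 libraries. C1qa over C1qb was 1.26 to 1.33 in K320E-skm and 1.02 to 1.37 in wild-type muscles, and C1qc over C1qb 0.990 to 1.16 in K320E-skm and 0.877 to 1.21 in wild-type muscles, with coefficients of variation of 8.99% and 10.5%. Between libraries the same transcripts varied far more, with the highest library of C1qa 4.35 times the lowest. The genes that flank the cluster were near the floor: Ephb2, an ephrin receptor, had 0.0964 to 0.214 FPKM in K320E-skm muscles, against 0.0695 to 0.522 FPKM in wild-type muscles, and Epha8, of the same family, is listed at 0 in all.

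**Figure D3:**
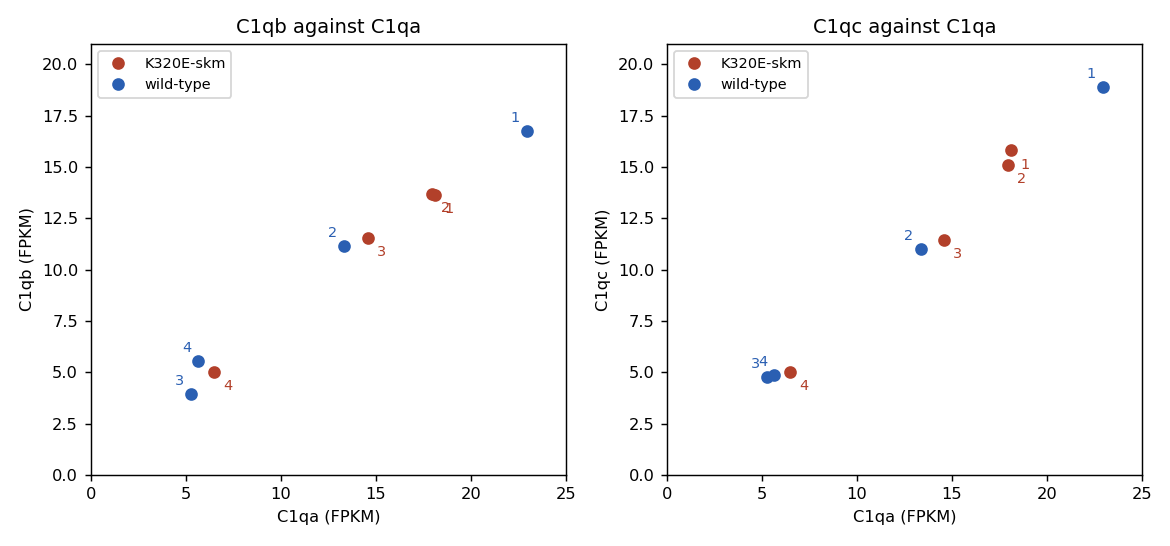
C1qb (left) and C1qc (right) against C1qa, all in FPKM, with 1 point per library, K320E-skm in red, wild-type in blue and digits giving the replicate number. The points lie along a line through the origin, with K320E-skm 4, wild-type 3 and wild-type 4 at 5.28 to 6.48 FPKM of C1qa and the rest at 13.3 FPKM or more.

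The other markers were less tightly bound to C1q. Over the geometric mean of the C1q chains, Cd68 was 0.437, 0.242, 0.402 and 0.349 in K320E-skm 1 to 4, against 0.175, 0.299, 0.272 and 0.144 in wild-type 1 to 4. Cd68 thus took a larger share beside C1q in 3 K320E-skm muscles than in any wild-type muscle, and K320E-skm 2 lay within the wild-type range. The ratio averaged 0.358 ± 0.085 in K320E-skm and 0.222 ± 0.075 in wild-type muscles (SD, n = 4 each). Cd163 over C1q varied most, from 0.224 to 0.484 in K320E-skm and from 0.193 to 0.491 in wild-type muscles, a coefficient of variation of 37.4%. Lyz2 over C1q was steadier, at 2.99 to 4.26 in K320E-skm and 2.65 to 4.82 in wild-type muscles. Of the 10 ratios computed, 0 separated the genotypes without overlap.

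For all 10 genes the 3 lowest libraries were the same: K320E-skm 4, wild-type 3 and wild-type 4. That ordering held for 5.53% of all tested genes. It was picked out after the values were seen, so it and the counts for other gene lists below are descriptions. These 3 libraries were not tested against the rest. C1qa was at 5.28 to 6.48 FPKM in those libraries and at 13.3 FPKM or more elsewhere, and Lyz2 at 20.7 to 23.2 FPKM and at 44.0 FPKM or more. For Cd163 the step was small, with 2.64 FPKM in K320E-skm 4 and 2.79 FPKM in K320E-skm 3. After median-ratio rescaling all 10 genes again had these 3 libraries lowest, against 4.59% of tested genes, and after quantile normalization 9 did, against 3.98%, with Cd163 the exception. The libraries came from both genotypes and both sex labels, and their relative depths of 1.00, 1.30 and 1.16 span the range of all 8. The cause of the shared order was not tested. As deposited, the highest library was less uniform. It was wild-type 1 for Csf1r, Mrc1 and the C1q genes and K320E-skm 1 for Cd68, Lyz2 and Adgre1. For Ctss it was K320E-skm 3 and for Cd163 wild-type 2. Median-ratio rescaling divides wild-type 1 by 1.28 and the other libraries by 0.905 to 1.04. On that scale wild-type 1 was no longer the highest library for Csf1r, Mrc1 or the C1q genes.

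General myeloid transcripts followed the same order. Of 26 genes of myeloid cells at large, 21 were tested, and 18 of them had these 3 libraries lowest. Their median log2 fold change was 0.07 with 14 above 0 and 20 above the median gene, and 0 passed the adjusted threshold. The 24 genes of the list found in the table summed to 59.1, 49.3, 64.7 and 27.1 FPKM in K320E-skm 1 to 4, against 84.9, 60.1, 23.0 and 28.7 FPKM in wild-type 1 to 4. Ptprc, which encodes the leukocyte antigen CD45, had 1.57 to 3.16 FPKM in K320E-skm muscles and 1.22 to 5.28 FPKM in wild-type muscles. Among resident macrophage genes 7 of 16 tested shared the order, among monocyte genes 5 of 9, and among mast cell genes 2 of 4. Of lipid-handling and repair macrophage genes 7 of 13 did, of cathepsins and cystatins 5 of 14 and of Schwann and nerve genes 1 of 4. Of the endothelial genes 0 of 10 did, of smooth muscle 0 of 7, of muscle fibre 0 of 11, of red blood cell 0 of 5 and of fibroblast genes 1 of 10. Of B and plasma cell genes 0 of 3 did, of adipocyte genes 0 of 5, and of satellite cell and dendritic cell genes 0 of 1 each. Summed levels of satellite cell, mast cell and dendritic cell markers were nonetheless lowest in these 3 libraries. Satellite cell sums were 1.68 to 2.43 FPKM in K320E-skm muscles, against 1.58 to 2.97 FPKM in wild-type muscles. The sums of monocyte, lipid-handling and repair macrophage, other complement, and cathepsin and cystatin genes were lowest there too. Fibroblast sums were 579, 452, 374 and 400 FPKM in K320E-skm 1 to 4, against 932, 563, 337 and 380 FPKM in wild-type 1 to 4.

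**Figure D4:**
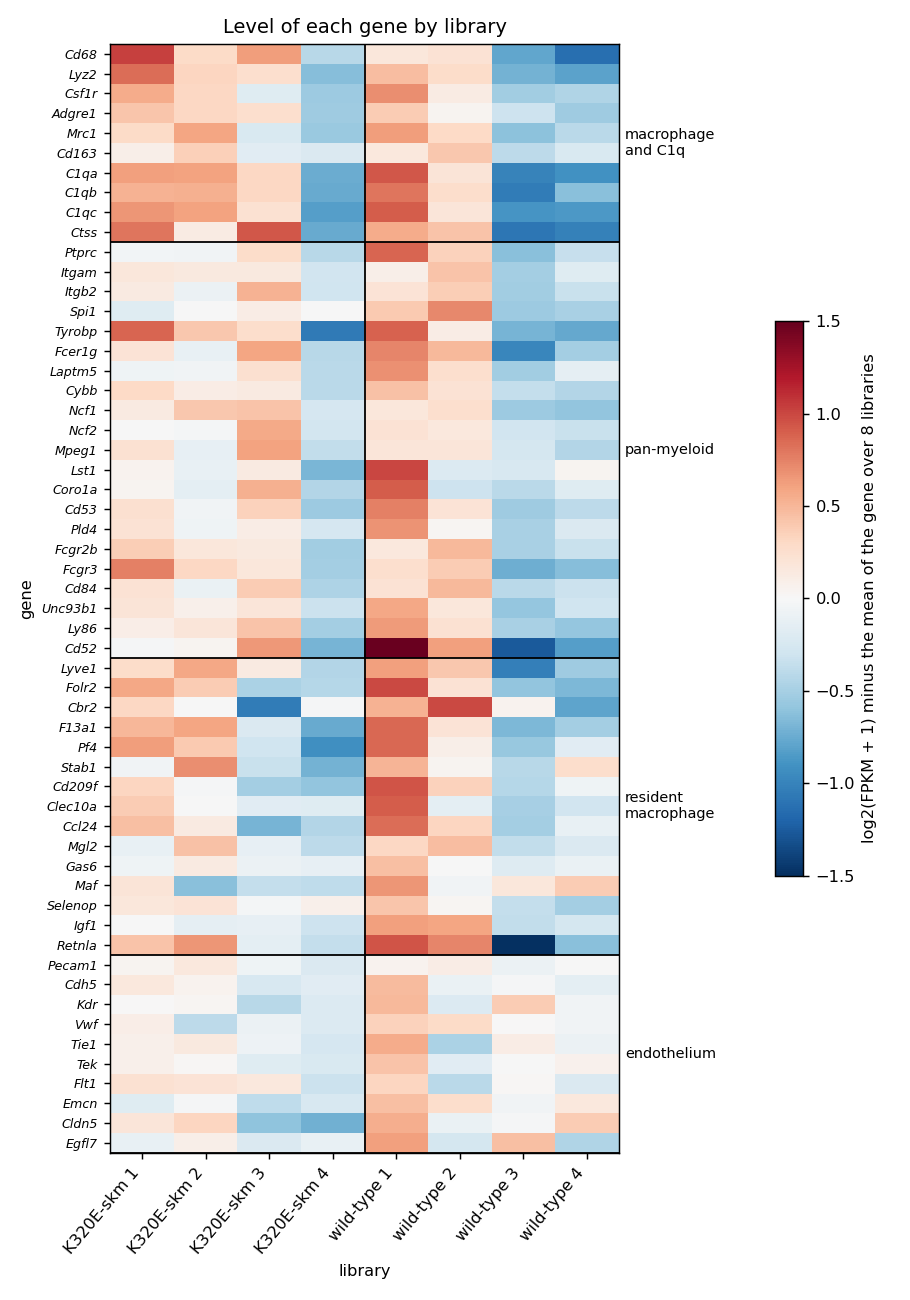
Log2(FPKM + 1) minus the mean of that gene over the 8 libraries, for the 10 genes and for tested genes of the pan-myeloid, resident macrophage (15 of 16 drawn) and endothelial lists, with K320E-skm libraries left of wild-type. Blue columns at K320E-skm 4, wild-type 3 and wild-type 4 run through the 10 genes and through 18 of 21 pan-myeloid genes, and 0 of 10 endothelial genes have those 3 libraries lowest.

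The genes most like C1q over the 8 libraries were ranked by Pearson r to the mean log2(FPKM + 1) of its chains, among 9403 protein-coding genes. Slc35c2, a transporter of the Golgi membrane, came first with r = 0.985, followed by Cfp, which encodes properdin of the alternative complement pathway, with 0.975. Cybb, the catalytic subunit of the phagocyte oxidase, had 0.967, and Tyrobp, the adaptor DAP12 of myeloid receptors, had 0.965. The top 10 also held Scpep1, Ddost, Fam129a, Rpl3, Sbno2 and S100a10, with r of 0.960 to 0.970. With genotype means subtracted, the r of the top 10 was 0.960 to 0.985. Of the other markers, Adgre1 ranked 15, Lyz2 16, Csf1r 27, Mrc1 48, Ctss 82, Cd68 238 and Cd163 521, and 87 genes reached an r of 0.9 or more. Of the 100 genes with the highest r, 13 belonged to the 10 genes or to the resident macrophage and pan-myeloid lists. Those lists had 16 and 21 tested genes, while 9403 protein-coding genes were ranked. The r is a description: all genes share the same 8 libraries, C1q fell into a high and a low set of them, and no p is given.

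In the wider list of resident macrophage genes, 16 of 24 were tested and 0 passed the adjusted threshold in either direction. Their median log2 fold change was -0.08, beside -0.14 over all tested genes, with 7 above 0. Selenop, a secreted selenium carrier and the highest of the list, had a mean of 224 FPKM in K320E-skm muscles, against 199 FPKM in wild-type muscles, and its log2 fold change was 0.21 (limma adjusted p = 0.616). Maf, a transcription factor of resident macrophages that other cells also express, had 20.3, 11.1, 13.6 and 13.3 FPKM in K320E-skm 1 to 4, against 28.4, 17.0, 20.0 and 23.3 FPKM in wild-type 1 to 4. Its log2 fold change was -0.58 with a standard error of 0.20, and the limma adjusted p was 0.289. Il34, a ligand of Csf1r, had 0.676, 0.981, 1.84 and 1.60 FPKM in K320E-skm 1 to 4, against 2.98, 2.30, 2.13 and 1.74 FPKM in wild-type 1 to 4. The limma adjusted p of Il34 was 0.289, and the exact two-sided permutation p was 0.0571. Csf1, the other ligand, had a log2 fold change of -0.36, and of the 3 tested growth factor genes 0 passed.

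Monocyte, lipid-handling and lysosomal genes gave no adjusted call either. Of the monocyte genes 9 of 18 were tested, 7 with a fold change above 0 and 9 above the median gene, and the median log2 fold change was 0.10. The highest levels belonged to S100a6, a calcium-binding protein also made by fibroblasts, with a log2 fold change of -0.02, and Ifitm3, an interferon-induced membrane protein, with 0.09. Ccl9, a chemokine, had a log2 fold change of 0.70 and Ms4a6c one of 0.36. Of the 13 tested genes of lipid-handling and repair macrophages 8 had a fold change above 0, and the median log2 fold change was 0.05. In that list Lgals3, which encodes galectin-3, had 13.5, 16.4, 12.3 and 5.12 FPKM in K320E-skm 1 to 4, against 5.47, 9.67, 4.16 and 3.72 FPKM in wild-type 1 to 4. Its log2 fold change was 0.90 with a standard error of 0.34 (limma adjusted p = 0.298, exact two-sided permutation p = 0.0857). Galectin-3 transcripts were above every wild-type value in 3 K320E-skm muscles, as Cd68 was, and K320E-skm 4 was again the low one. Among 14 tested cathepsins and cystatins the median log2 fold change was -0.01, and Cstb, the inhibitor cystatin B, had a log2 fold change of 0.55 whereas Ctsc, cathepsin C, had -0.50.

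The other complement genes had fold changes close to those of all genes. Of 28 listed, 16 were tested, 3 had a fold change above 0 and 7 lay above the median gene, with a median log2 fold change of -0.15 and 0 adjusted calls. Serping1, the inhibitor of the C1r and C1s proteases that bind C1q, had 26.8 to 37.8 FPKM in K320E-skm muscles and 22.2 to 56.3 FPKM in wild-type muscles. Calr, calreticulin, a chaperone of the endoplasmic reticulum that can bind C1q, had 42.8 to 56.4 FPKM in K320E-skm muscles, against 33.5 to 70.2 FPKM in wild-type muscles. The membrane regulators Cd55 and Cr1l, which limit complement on host cells, had log2 fold changes of -0.23 and -0.24. K320E-skm 4, wild-type 3 and wild-type 4 were the lowest libraries for 7 of the 16, Calr and Serping1 among them.

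Transcripts of other cell types varied between the libraries too. B and plasma cell markers summed to 10.6, 65.9, 74.2 and 31.0 FPKM in K320E-skm 1 to 4, against 772, 213, 50.9 and 35.3 FPKM in wild-type 1 to 4. Wild-type 1, the highest library for C1q as deposited, thus stood apart in immunoglobulin transcripts. It also had the highest fibroblast sum, at 932 FPKM. Neutrophil markers summed to 8.54, 8.31, 30.3 and 2.08 FPKM in K320E-skm 1 to 4, against 4.53, 3.37, 2.38 and 4.41 FPKM in wild-type 1 to 4. Their defining gene Ly6g is listed at 0 in all 8, and Camp and Ngp, granule genes of the marrow, were at 0.868 and 1.56 FPKM in K320E-skm 3. S100a8, which encodes a subunit of calprotectin and is shared by neutrophils and monocytes, had 5.51, 6.28, 14.8 and 0.487 FPKM in K320E-skm 1 to 4, against 0.998, 0.536, 0.943 and 1.05 FPKM in wild-type 1 to 4. Its limma adjusted p was 0.289 with all libraries and 0.049 without K320E-skm 4, the only K320E-skm library where it was low. It reached 1 FPKM in only 4 libraries, and without any 1 of these it was not tested. Adipocyte markers summed to 8.36 to 17.1 FPKM in K320E-skm muscles, against 3.55 to 56.8 FPKM in wild-type muscles, and endothelial markers to 69.5 to 88.2 FPKM in K320E-skm muscles, against 74.6 to 115 FPKM in wild-type muscles. Smooth muscle and pericyte markers summed to 86.7 to 114 FPKM in K320E-skm muscles, against 117 to 135 FPKM in wild-type muscles. These sums did not overlap (unadjusted exact two-sided permutation p = 0.0286, the smallest possible), nor did the fibre sums, with the same p. Of all tested genes 9.59% were lower in K320E-skm muscles without overlap. The median log2 fold change of the smooth muscle and pericyte markers was -0.33, beside -0.14 over all tested genes. The part of these cell types in the levels of the 10 genes was not tested. FPKM are shares of a library, and the fibre sums, the largest of these lists, were lower in every K320E-skm library than in any wild-type library. Relative to the median gene the log2 fold change of Cd68 was 0.90 and that of C1qa 0.53, with exact two-sided permutation p of 0.114 and 0.229.

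**Figure D5:**
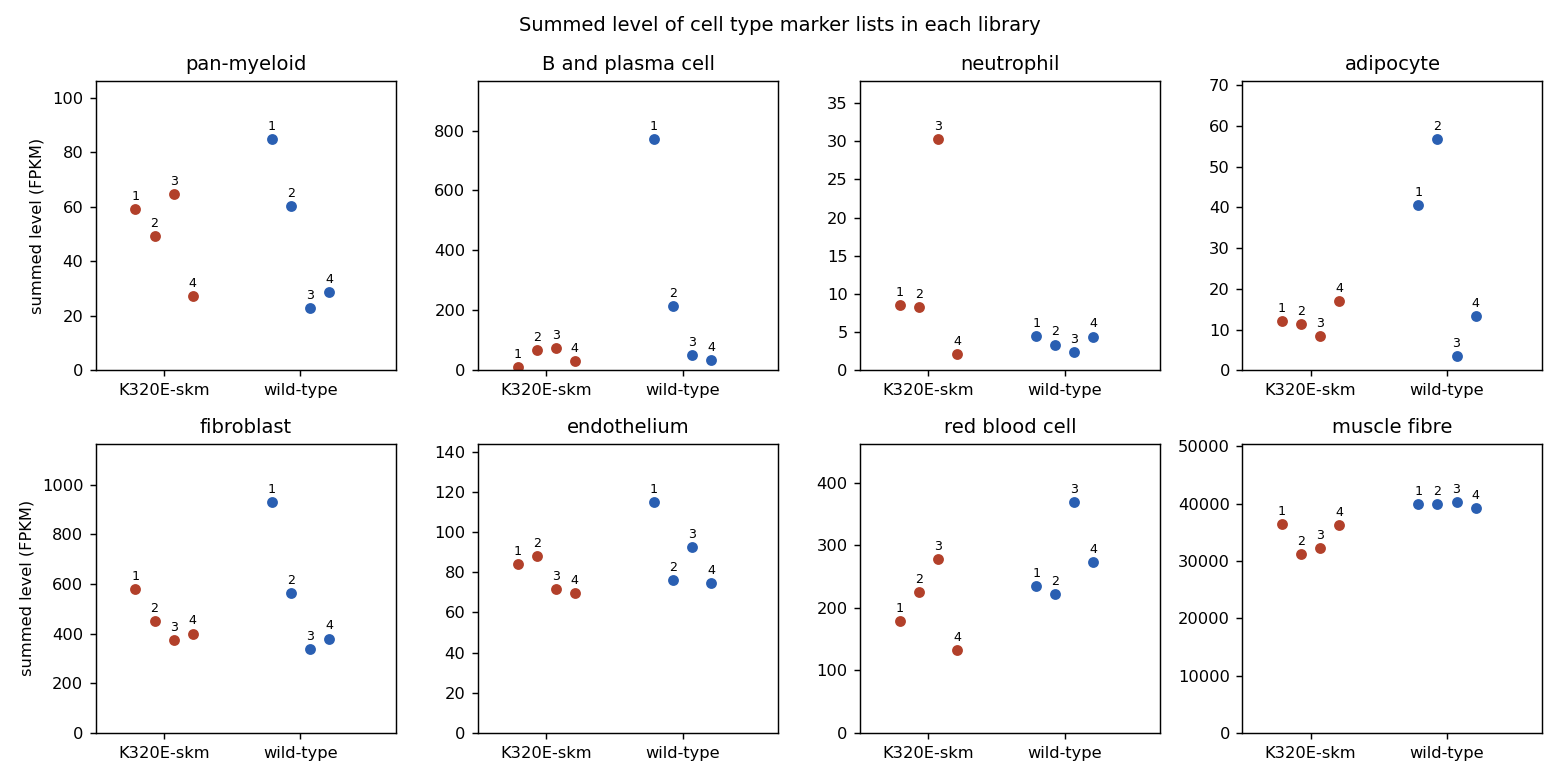
Summed FPKM of marker genes of 8 cell classes in each library, with K320E-skm in red on the left, wild-type in blue on the right, and digits giving the replicate number. The pan-myeloid sum is lowest in K320E-skm 4, wild-type 3 and wild-type 4, the B and plasma cell sum reaches 772 FPKM in wild-type 1, and the fibre sums of the genotypes do not overlap.

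A difference of the genotype effect between the sex labels was sought with an interaction term in limma, using the labels as given. Of the 10 genes 0 passed, with adjusted p of 0.999 for each, against 0.019% of all genes. At an unadjusted p under 0.05 there were likewise 0, against 2.27% of all genes, the smallest p being 0.242 for Adgre1. Since the sex-linked transcripts of K320E-skm 4 go against its label, the term compares labels.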

How the data were processed

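The measure is the FPKM of each gene in 8 libraries, deposited by the authors in 1 table. The submitters' processing notes name TopHat2 2.0.10, Cufflinks 2.1.1, CASAVA and the build mm10, and the notes used here hold no annotation release and no strand setting. Genotype was taken from the sample titles. Identifiers were looked up in GENCODE M21 on GRCm38 for symbols and coordinates (47864 of 48328 found), and promoters were taken from RefSeq (GRCm38.p6). No counts were at hand, so depth was only compared between libraries, from the steps among very low values.

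Log2(FPKM + 1) was tested with limma 3.58.1 in R 4.3.3, with genotype as the only term, a trended empirical Bayes and two-sided p, on the 10521 genes that reached 1 FPKM in 4 or more libraries. Because of the pseudocount, fold changes understate the change of genes with low FPKM. Calls needed an adjusted p (Benjamini-Hochberg) under 0.05, and the fit left 6 residual degrees of freedom. A term for the sex label was an alternative, because of the mismatch in K320E-skm 4. Single genes were also compared by exact permutation (scipy 1.17.1). Lists are described by counts and medians, without a set test.

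The 10 genes and the gene lists were chosen with earlier results of these data known. Named beyond the 10 are the highest 2 and the smallest 2 by limma p of each macrophage, complement or protease list, the highest 2 of other cell types with their defining markers, the genes nearest C1q by correlation, and its neighbours on the chromosome. A gene that this rule names is not reported here. Ptprc, Twnk and Lyz1 and, among other observations, Ccr2, Ly6c2, Lyve1, Folr2, Timd4 and Trem2 were added outside this rule. Same-numbered libraries of the genotypes were not paired by the labels. Alternatives were other pseudocounts, filters, scalings, terms and weights, and leaving out each library.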

Additional observations from a re-analysis of the deposited data

Results flagged for a closer look

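Within a genotype of 4 libraries, 1 library was far from the other 3, by Dixon's test at 95%, in 9 of 202 sets of values examined, and chance gives about 1 in 20. The ratio of Adgre1 to C1q was 0.207 in wild-type 3, against 0.112 to 0.126 in the other wild-type libraries. Cfp, the gene of properdin, was at 1.71 FPKM in K320E-skm 4, below the other K320E-skm libraries. Cr1l, a complement regulator, was at 10.7 FPKM in K320E-skm 4, where the other K320E-skm libraries had 12.1 to 12.3 FPKM. Cst3, the gene of cystatin C, reached 347 FPKM in wild-type 1, against 189 to 212 FPKM in the other wild-type libraries. Ighm, the heavy chain of IgM, was at 316 FPKM in wild-type 1, where the summed T and NK cell markers were also high, at 7.66 FPKM. S100a9, the partner of S100a8, was at 8.55 FPKM in K320E-skm 3, against 0.326 to 0.646 FPKM in the other K320E-skm libraries. In wild-type 2, Acta2, smooth muscle actin, was high at 37.5 FPKM and Ckm, muscle creatine kinase, stood apart at 7408 FPKM.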

How the results depend on the processing

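Of the 10 genes, 0 passed the adjusted threshold in limma under any alternative run, including those that left out each library. Their smallest limma adjusted p was 0.120, for Cd68 with array weights. The median log2 fold change of the 10 was 0.32, and between 0.32 and 0.70 under other pseudocounts, filters, scalings, terms and weights. The filter of FPKM 5 left 6 of the 10, without Cd68, Csf1r, Adgre1 and Cd163. Leaving out single libraries gave 0.11 (without wild-type 3) to 0.63 (without K320E-skm 4). Among all genes 2 passed, both genes of small RNAs, and 1 passed with no filter, 1 with a filter of FPKM 5 and 1 with robust empirical Bayes. Leaving out single libraries gave 0 to 3, with 0 without K320E-skm 2 or without K320E-skm 3, 1 without K320E-skm 1, wild-type 2 or wild-type 4, and 3 without K320E-skm 4. The cause was not tested.

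Signs turned among small fold changes. When single libraries were left out, log2 fold changes ranged from -0.10 to 0.32 for Csf1r, -0.15 to 0.27 for Mrc1, -0.10 to 0.17 for Cd163, -0.15 to 0.064 for Gas6, -0.014 to 0.63 for Tyrobp, -0.43 to 0.49 for Cd52, -0.22 to 0.24 for S100a6, -0.10 to 0.32 for Ifitm3, -0.15 to 0.20 for Calr, -0.33 to 0.10 for Serping1 and -0.31 to 0.0036 for Cst3. The difference of mean FPKM also turned, with exact permutation p of 0.40 to 1 for Csf1r, 0.457 to 1 for Mrc1, 0.457 to 0.971 for Cd163 and 0.229 to 0.971 for C1qb. With median-ratio rescaling, quantile normalization and array weights, the log2 fold change was 0.10, 0.086 and 0.041 for Gas6, 0.15, 0.13 and 0.69 for Cd52, 0.16, 0.13 and 0.15 for S100a6, and 0.052, 0.022 and 0.23 for Serping1, and with a pseudocount of 0.1 it was 0.093 for Cd52. Median-ratio rescaling moved the median of all genes to 0.00 and that of the 10 genes to 0.49.

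With the replicate number as a block, 2 genes passed overall and 0 of the 10, as without it. Deviations of same-numbered libraries correlated at 0.156, 0.0233, 0.0442 and 0.0395, so the numbers were not taken to pair the samples. The planned pairwise correlations between the 10 genes, with their tests, were not run, since C1q split the libraries into a high and a low set. The r of single genes to the C1q mean is given only to rank genes.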

Other observations

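Further macrophage and immune transcripts were low, with Timd4 near the floor in wild-type 3. Timd4, Ly6c2 and Trem2 did not reach the level needed for testing. Lyve1 and Folr2, surface markers of resident macrophages along vessels, had 1.55 to 4.17 and 1.35 to 3.87 FPKM in K320E-skm muscles, against 0.701 to 4.33 and 1.05 to 5.50 FPKM in wild-type muscles. Timd4, a receptor for phosphatidylserine on long-lived resident macrophages, was at 0.106 to 0.233 FPKM in K320E-skm muscles, against 0.00992 to 0.521 FPKM in wild-type muscles. Ccr2, the chemokine receptor of recruited monocytes, averaged 1.38 ± 0.484 FPKM in K320E-skm muscles, against 1.24 ± 0.548 FPKM in wild-type muscles (SD, n = 4 each), and Ly6c2 ranged from 0.461 to 1.85 FPKM in K320E-skm muscles, against 0.363 to 1.64 FPKM in wild-type muscles. Trem2, a lipid receptor of repair macrophages, was at 0.211 to 0.574 FPKM in K320E-skm muscles, against 0.146 to 0.373 FPKM in wild-type muscles. Of 4 tested mast cell genes 2 had K320E-skm 4, wild-type 3 and wild-type 4 lowest, as the macrophage genes did. These were Mcpt4, which encodes a chymase, and Cma1. T and NK cell markers summed to 1.24 to 4.21 FPKM in K320E-skm muscles, against 1.20 to 7.66 FPKM in wild-type muscles, and dendritic cell markers to 3.18 to 3.81 FPKM in K320E-skm muscles, against 2.33 to 5.99 FPKM in wild-type muscles.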
